A study of Homo sapiens with 9 samples.

Results

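The GIMAP genes (GTPases of immunity-associated proteins) of ALL-SIL cells are described here: GIMAP1, GIMAP2, GIMAP4, GIMAP5, GIMAP6, GIMAP7 and GIMAP8, the 7 protein-coding genes that bear the family name in the cluster on the long arm of chromosome 7. They were taken by symbol, and their identifiers came from GENCODE release 29 on GRCh38. All 7 passed the filter on low counts, among 18554 genes tested of 58096 gene identifiers. ALL-SIL is a human cell line from a T-cell acute lymphoblastic leukaemia that expresses the homeobox oncogene TLX1. Polyadenylated RNA was sequenced after electroporation of the cells with an siRNA, in 9 libraries: 3 labelled NTC siRNA (called NTC), 3 labelled TLX1_siRNA1 (siRNA1) and 3 labelled TLX1_siRNA2 (siRNA2), numbered replicate 1 to 3 within each label. All libraries are of 1 cell line, and the sources used here do not give the siRNA sequences, the dose or the harvest time. Whether replicates are separate cultures is not in the labels, and p-values then reflect the spread between libraries alone, which may be technical.

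GIMAP proteins are small GTPases of lymphocytes related to the septins, and some are tethered to an intracellular membrane. They are known chiefly from the survival of resting T cells: rats and mice that lack GIMAP5, a protein of lysosomes, lose peripheral T lymphocytes. GIMAP2 coats lipid droplets, GIMAP7 stimulates the GTPase activity of GIMAP2, GIMAP6 binds the autophagy protein GABARAPL2, GIMAP4 speeds the death of T cells, and GIMAP8 carries several GTPase domains in 1 chain.

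The cluster spans chr7:150450630-150750033 on GRCh38. Along it lie GIMAP8 (chr7:150450630-150479392), GIMAP7 (chr7:150514830-150521073), GIMAP4 (chr7:150567277-150573955), GIMAP6 (chr7:150625375-150632648), GIMAP2 (chr7:150685697-150693641), GIMAP1 (chr7:150716557-150724284) and GIMAP5 (chr7:150722253-150750033). GIMAP6 is on the minus strand and the other 6 are on the plus strand. The nearest protein-coding gene before the cluster, ZNF775, ends 52.0 kb away and had 23.0 to 37.1 CPM (reads of the gene scaled to the same library total). The nearest after it, TMEM176B, lies 41.3 kb away and had at most 3 counts in any library. Between the first and the last member, the other annotated genes are pseudogenes and a read-through gene, with no more than 46 counts in a library.

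The bases just before the start of each member were read from RefSeq promoter sequences (build GRCh38.p14), and all 7 members matched. In the 250 bases before the start, each of the 7 held the letters AGGAAG on either strand, a core sequence of ETS transcription factors, at first bases from -65 to -22 relative to the start. The same letters were found in 28.7% of 34943 RefSeq windows of this length and place. Not all of the members' matches lie upstream of annotated exons. By GENCODE, those of GIMAP1, GIMAP4 and GIMAP5 lie within an exon, and that of GIMAP7 runs into an exon. Those of GIMAP2 and GIMAP8 lie before the first exon, and the GIMAP6 match was not placed against its exons here. The RUNX letters TGTGGT were in 0 of 7 members (11.0% of windows), the GATA letters AGATAA in 0 of 7 (9.19%) and the RBPJ letters TGGGAA in GIMAP1 only (20.9%), all searched on both strands, and none of the matches overlapped a match to another motif. A run of 14 bases was shared by GIMAP1, GIMAP2 and GIMAP7, and only these 3 of the 34943 windows held it. It is shown in capitals with 8 bases on each side because it joins 3 members and holds an AGGAAG match on the opposite strand. GIMAP2 is given on the minus strand, opposite to its transcription, and the other 2 as transcribed. The lines show chr7:150716545-150716574 for GIMAP1, chr7:150685641-150685670 for GIMAP2 and chr7:150514812-150514841 for GIMAP7. The bases from 150716557 on in the GIMAP1 line, and from 150514830 on in the GIMAP7 line, lie in the gene's first GENCODE exon.
GIMAP1: gggcccacCCTGAGCTTCCTGAtttctgaa
GIMAP2: tgaatcttCCTGAGCTTCCTGActgctaat
GIMAP7: ccacccagCCTGAGCTTCCTGActgagagg
Between GIMAP2 and GIMAP7 the run went on to 17 bases (CAGTCAGGAAGCTCAGG in GIMAP2 as transcribed), found in 2 windows.

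The 120 bases before the first GENCODE exon are shown for GIMAP2 (chr7:150685577-150685696, plus strand) and GIMAP8 (chr7:150450510-150450629, plus strand), as transcribed, because these stretches hold more than 1 AGGAAG match, in capitals. GIMAP5 also held 2 matches, at -65 and -49, but they lie within a GENCODE exon and so not in the 120 bases before it. GIMAP2 is also the member that did not pass between replicate 1 and the other replicates, while GIMAP5 and GIMAP8 passed. A link of this to the matches was not tested.
GIMAP2: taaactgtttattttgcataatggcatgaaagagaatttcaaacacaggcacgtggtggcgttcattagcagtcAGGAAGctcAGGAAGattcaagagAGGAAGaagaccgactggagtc
GIMAP8: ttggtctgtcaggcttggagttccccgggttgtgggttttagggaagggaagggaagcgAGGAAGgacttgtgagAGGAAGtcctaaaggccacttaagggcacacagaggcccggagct
A match is a run of letters and not a measured binding site.

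Depth was 58305492 to 99524663 gene counts per library. The targeted gene went against a label: TLX1 was 178 ± 9.41 CPM (SD, n = 3) in the libraries labelled NTC, 417 ± 36.5 in those labelled siRNA1 and 203 ± 26.1 in those labelled siRNA2. The libraries labelled siRNA1 had 2.33 times the TLX1 level of those labelled NTC (edgeR quasi-likelihood test with the replicate number as a block, adjusted p = 2.05e-10), and no difference below is read as an effect of less TLX1. Of 12 T lineage markers, TLX1 among them, 11 were at 1 CPM or more, with a summed level of 2123 to 2510 CPM, while PTCRA stayed at 0.774 CPM or less. Summed levels of natural killer, myeloid, erythroid, and epithelial or fibroblast markers did not exceed 1.29 CPM. Of the endothelial markers, PECAM1 was at 94.5 to 128 CPM while CDH5, KDR and TEK had 0 counts. The 3 replicate 1 libraries stood apart: TLX3, a homeobox gene related to TLX1, had 33 (NTC), 54 (siRNA1) and 41 (siRNA2) counts in them and 0 in the other 6. Results on label are therefore also given without those 3 libraries.

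The members fell into a high, a middle and a low tier. GIMAP7 was highest at 76.1 ± 16.1 CPM per kb of own exon, followed by GIMAP6 at 50.1 ± 4.97 and GIMAP2 at 35.8 ± 4.36 (SD over the 9 libraries). Own exon here means exon bases that no other gene shares, since reads over shared bases are not counted for either gene. These 3 genes were higher than 97.3%, 95.5% and 93.1% of 18435 tested genes on this scale. GIMAP1 (4.10 ± 0.688 CPM per kb) and GIMAP5 (2.33 ± 0.691) lay near the middle of all genes, above 55.8% and 46.9% of them. The GIMAP5 level is that of its own exon bases, of which 85.2% lie only in transcripts annotated as noncoding. Its place in the order is therefore not like for like with members that keep all their coding bases. GIMAP8 (0.300 ± 0.0671) and GIMAP4 (0.0968 ± 0.0552) were low, above 18.9% and 8.07% of genes. GIMAP7, GIMAP6 and GIMAP2 together gave most of the family's signal, at 45.1%, 29.7% and 21.2% of the summed level per kb. Each member was above the next in this order in 9 of 9 libraries. Only the ranges of GIMAP1 (2.92 to 5.06) and GIMAP5 (1.51 to 3.53 CPM per kb) overlapped between libraries. The ratio from GIMAP2 to GIMAP1 was 8.72 and that from GIMAP5 to GIMAP8 was 7.76, the widest steps in the order.

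**Figure D1:**
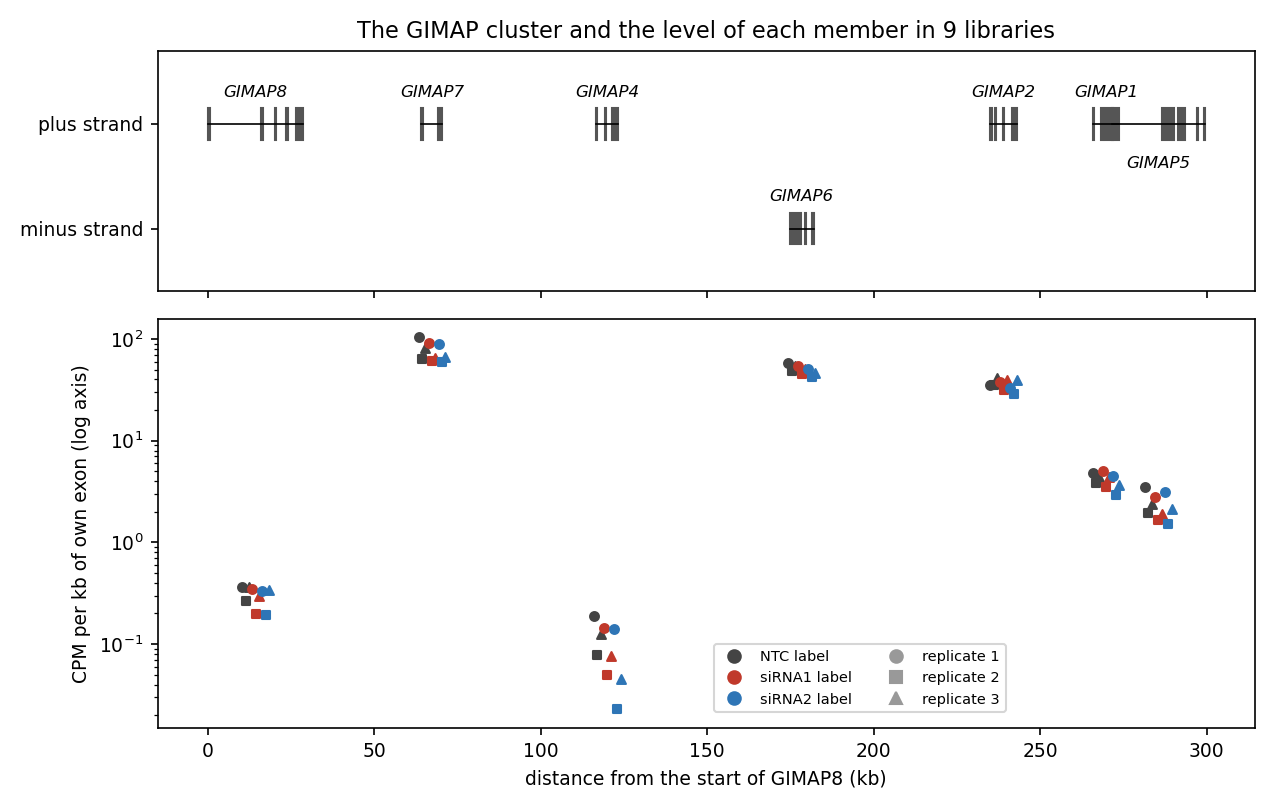
Top: exons of the 7 GIMAP genes by distance from the start of GIMAP8 (kb) and by strand. Bottom: level of each gene in CPM per kb of own exon on a log axis, 1 point per library, spread sideways for sight, coloured by siRNA label and shaped by replicate number; GIMAP7, GIMAP6 and GIMAP2 lie between 28.5 and 104 and GIMAP4 at 0.187 or less.

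GIMAP5 counts describe only part of that gene. A read-through gene, GIMAP1-GIMAP5, joins the exons of both neighbours in the annotation, and it shares 1717 of the 6031 exon bases of GIMAP5 (28.5%) and 431 of the 4846 of GIMAP1 (8.89%). None of the read-through gene's 2148 exon bases is its own, and it had 0 counts in every library. GIMAP5 kept 3883 own bases but 0 of its 921 coding bases, and 85.2% of its own bases lie only in transcripts annotated as noncoding. GIMAP1 kept 56.2% of its coding bases, and the other 5 members kept all of theirs. By this annotation, the deposited GIMAP5 value covers mainly untranslated and noncoding exons. GIMAP3P, a processed pseudogene on the minus strand that shares 15 exon bases with GIMAP5, had 11 to 46 counts, and BET1P1, a pseudogene sharing 298 bases with it, had 3 to 8. The counts ignore strand, so reads of overlapping genes on opposite strands cannot be told apart.

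**Figure D2:**
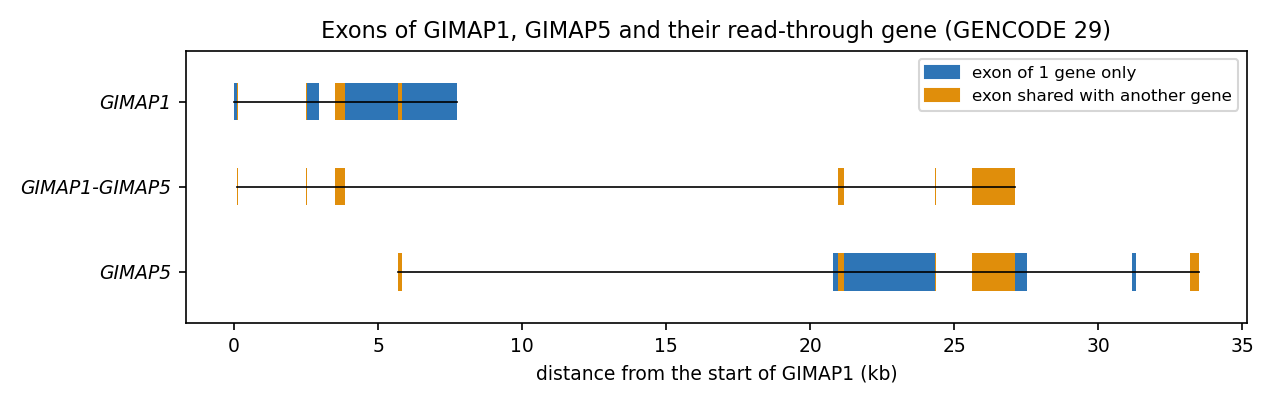
Exons of GIMAP1, the read-through gene GIMAP1-GIMAP5 and GIMAP5 by distance from the start of GIMAP1 (kb), with bases of 1 gene only in blue and bases shared with another gene in orange. All exon bases of the read-through gene are shared, as is most of the block of GIMAP5 that lies near 26 kb.

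Between the libraries labelled siRNA1 and those labelled NTC, GIMAP5 was the 1 member that passed the test, and it was lower under the siRNA1 label. GIMAP5 was 13.7, 7.60 and 9.17 CPM in NTC replicates 1, 2 and 3, and 10.8, 6.38 and 7.33 CPM in siRNA1 replicates 1, 2 and 3. The groups overlapped, but the siRNA1 library was the lower of each same-numbered pair. GIMAP5 fell by 0.31 on the log2 scale (SE 0.09, adjusted p = 0.0223 by edgeR's quasi-likelihood test with Benjamini-Hochberg adjustment), which is 19.1% lower. The background was 5.93% of 18554 tested genes called lower, so 1 of 7 is no more than a single call. The call was lost without the block (adjusted p = 0.826), without the 3 replicate 1 libraries (0.232), and without NTC replicate 1 (0.0798), 2 (0.0613) or 3 (0.0615) or siRNA1 replicate 1 (0.171) or 3 (0.112), while the log2 fold change stayed between -0.36 and -0.27 in all 19 alternatives.

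GIMAP7, the partner that activates GIMAP2, was 130.1, 80.7 and 103 CPM in NTC replicates 1, 2 and 3 and 116, 77.1 and 81.7 CPM in those of siRNA1. The siRNA1 library was lower in 3 of 3 pairs, with overlapping groups, and the log2 difference of -0.19 (SE 0.06) missed the threshold (edgeR adjusted p = 0.0635). It passed in 4 of 19 alternatives: with DESeq2 (adjusted p = 0.0362), with only the 2 groups in the fit (0.0373), without NTC replicate 2 (0.0260 by edgeR) and without siRNA2 replicate 3 (0.0299). GIMAP6, the autophagy-linked member, was 228, 191 and 211 CPM in NTC replicates 1, 2 and 3, against 214, 177 and 197 in siRNA1 (log2 difference -0.10, SE 0.06, edgeR adjusted p = 0.317). For GIMAP2 the values were 74.1, 73.3 and 87.7 CPM with the NTC label and 78.4, 65.8 and 83.5 with the siRNA1 label (log2 difference -0.05, SE 0.07). GIMAP1, needed for mature lymphocytes in mice, was 20.7, 16.3 and 18.9 CPM against 21.7, 15.1 and 18.7 (log2 difference -0.02, SE 0.07). For GIMAP2 and GIMAP1 replicate 1 was higher under the siRNA1 label and replicates 2 and 3 lower.

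At the low end, GIMAP8 was 1.51, 1.11 and 1.53 CPM in the libraries labelled NTC and 1.46, 0.818 and 1.25 CPM in those labelled siRNA1 (log2 difference -0.26, SE 0.15, edgeR adjusted p = 0.308). GIMAP4 had 26, 17 and 23 counts against 30, 10 and 16 counts, few enough that counting error is a large part of its spread (log2 difference -0.56, SE 0.30, adjusted p = 0.274). All 7 log2 differences were below 0, with a median of -0.19, beside a median of 0.00 over all genes, of which 48.9% were below 0. For 5 of 7 members the siRNA1 library was lower in every pair, which held for 22.8% of tested genes. No member had groups that did not overlap, against 15.8% of genes in either direction.

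The libraries labelled siRNA2 gave 0 of 7 members past the test against those labelled NTC by edgeR, where 0.151% of genes were called (28 genes). At an unadjusted p under 0.05 there were 6 of 7 members, against 8.37% of all genes, while limma-voom called 0 members and DESeq2 called 1, GIMAP6. GIMAP6 was 197, 166 and 182 CPM in siRNA2 replicates 1, 2 and 3, the lowest of the 3 labels for each number. Its log2 difference from NTC was -0.21 (SE 0.06, edgeR adjusted p = 0.177; DESeq2 -0.20, adjusted p = 0.0337). GIMAP7 was 113, 75.0 and 84.4 CPM (log2 difference -0.20, SE 0.06, edgeR adjusted p = 0.298). GIMAP2 was 69.1, 59.9 and 83.4 CPM (-0.16, SE 0.07, adjusted p = 0.518). For both, each library was below the NTC library of the same number.

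GIMAP5 was 12.2, 5.85 and 8.27 CPM in siRNA2 replicates 1, 2 and 3, with a log2 difference from NTC of -0.23 (SE 0.09, edgeR adjusted p = 0.427). GIMAP1 was 19.1, 12.5 and 15.6 CPM (-0.26, SE 0.07, adjusted p = 0.194). GIMAP8 was 1.38, 0.814 and 1.41 CPM (-0.23, SE 0.15), and GIMAP4 had 22, 4 and 6 counts (-0.96, SE 0.34, adjusted p = 0.363). Leaving out 1 library moved 4 of these uncalled differences by over 1.5 times: GIMAP4 to -1.52 without siRNA2 replicate 1, GIMAP5 to -0.15 without siRNA2 replicate 2, and GIMAP8 to -0.14 and GIMAP2 to -0.095 without NTC replicate 2. Without the 3 replicate 1 libraries GIMAP4 was at -1.58. All 7 members were lower than NTC in every same-numbered pair, which held for 13.6% of tested genes, and none had groups that did not overlap (5.58% of genes). The median log2 difference of the members was -0.23 and that of all genes -0.00. For the 22 tested genes within 500 kb of the cluster it was -0.10. Both comparisons use the same 3 libraries labelled NTC, so the shared sign of a member in them is not counted as a second observation.

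**Figure D3:**
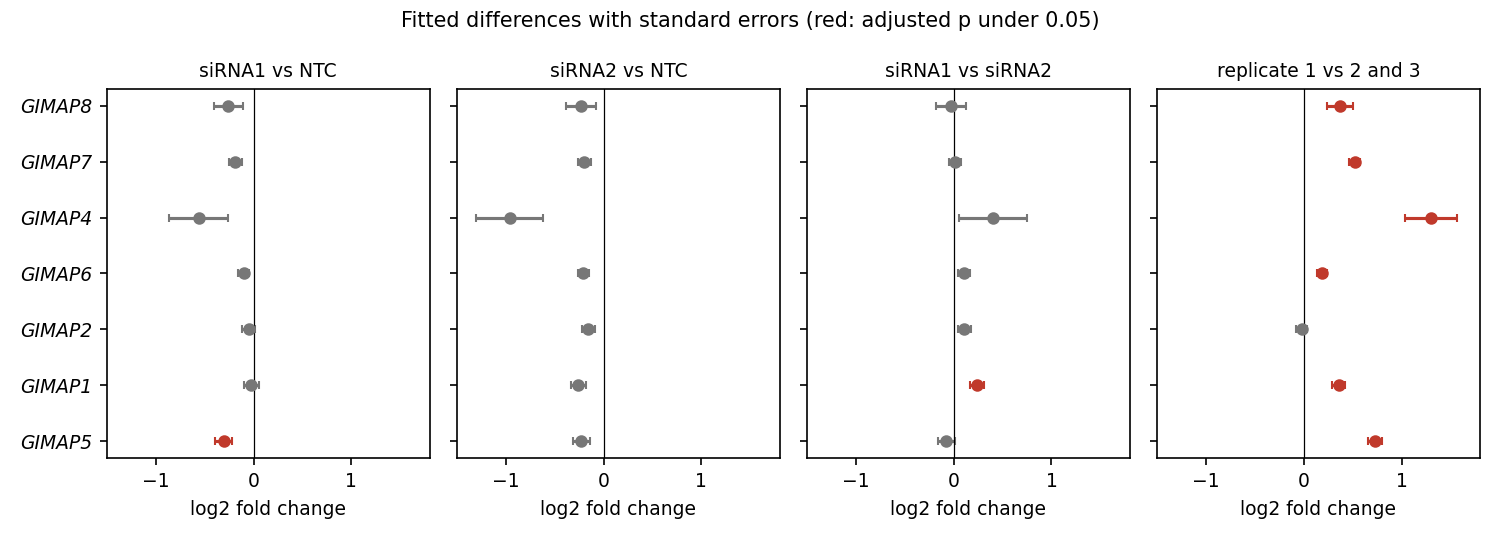
Log2 fold change (x axis) of each GIMAP gene with its standard error (bars) in the 4 comparisons, the first-named group minus the second. Red points passed at an adjusted p under 0.05: GIMAP5 for siRNA1 against NTC, GIMAP1 for siRNA1 against siRNA2, and every member but GIMAP2 for replicate 1 against replicates 2 and 3.

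Set directly against each other, the libraries labelled siRNA1 had more GIMAP1 than those labelled siRNA2: 21.7, 15.1 and 18.7 CPM against 19.1, 12.5 and 15.6 CPM, higher in 3 of 3 pairs with overlapping groups. GIMAP1 passed, as 1 of 7 members beside 5.29% of genes called higher, with a log2 difference of 0.24 (SE 0.07, edgeR adjusted p = 0.0443), or 17.8%. The call was lost in 13 of 19 alternatives, among them RLE factors (adjusted p = 0.0511), library size alone (0.0537), no filter (0.0708), no block (0.741), leaving out any 1 of the 6 siRNA libraries or of NTC replicates 1 and 3 (0.0539 to 0.224), and leaving out the 3 replicate 1 libraries (0.208). The other 6 members had log2 differences from -0.08 for GIMAP5 to 0.40 for GIMAP4, with adjusted p of 0.289 or more. GIMAP7 was at 0.01 (SE 0.06).

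More members passed between replicate numbers than between labels. The replicate number was the block of the fit, so p-values for replicate 1, here and below, measure the spread left after label and number. They do not measure the spread between replicate numbers, and same-numbered libraries deviated together. Within labels, 6 of 7 members were higher in replicate 1 than in replicates 2 and 3 by edgeR's test, beside 10.9% of tested genes called higher, and the median log2 difference was 0.37 beside -0.01 over all genes. GIMAP7 was 130.1, 116 and 113 CPM in replicate 1 under the labels NTC, siRNA1 and siRNA2, and 75.0 to 103 CPM in the other 6. These groups did not overlap, and GIMAP7 rose by 0.52 on the log2 scale (SE 0.05, adjusted p = 4.57e-07), or 43.5%. GIMAP5 was 13.7, 10.8 and 12.2 CPM in replicate 1 and 5.85 to 9.17 CPM in the others, again without overlap. Its log2 difference was 0.73 (SE 0.07, edgeR adjusted p = 2.51e-07) or 1.66-fold, beside the 0.31 by which it differed between the labels siRNA1 and NTC.

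GIMAP1 was 19.1 to 21.7 CPM in replicate 1 and 12.5 to 18.9 CPM elsewhere, a log2 difference of 0.36 (SE 0.06, edgeR adjusted p = 0.000313). GIMAP4 had 26, 30 and 22 counts in replicate 1 and 4 to 23 in the other 6, and its CPM did not overlap either (log2 difference 1.30, SE 0.27, adjusted p = 0.00125). Together with GIMAP5 and GIMAP7 these made 4 of 7 members without overlap between replicate 1 and the rest, beside 6.4% of genes that were higher without overlap. Their calls were kept in each of 16 alternatives (15 for GIMAP4, which 1 filter removed). GIMAP6 rose by 0.19 (SE 0.05, edgeR adjusted p = 0.0106), with replicate 1 highest under each label but overlapping across labels. GIMAP8 rose by 0.37 (SE 0.13, adjusted p = 0.0454), with replicate 1 highest under the siRNA1 label alone. In the 3 labels together, replicate 1 was highest under every label for 5 of 7 members and for 13.1% of genes. The GIMAP6 call was lost without the NTC (adjusted p = 0.0881), siRNA1 (0.107) or siRNA2 (0.0605) replicate 1 library. The GIMAP8 call was lost in 10 of 16 alternatives, with an adjusted p of up to 0.320 without siRNA1 replicate 1.

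GIMAP2 was the exception, at 69.1 to 78.4 CPM in replicate 1, 59.9 to 73.3 in replicate 2 and 83.4 to 87.7 in replicate 3. Its highest libraries were thus those of replicate 3, and the log2 difference of replicate 1 from the rest was -0.02 (SE 0.06, edgeR adjusted p = 0.837). Replicate 2 had the lowest mean for all 7 members, for example 77.6 CPM for GIMAP7 against 119.6 in replicate 1 and 89.6 in replicate 3. What sets replicate 1 apart is not given by the labels. Summed B cell markers moved with it, at 20.4 to 23.7 CPM in replicate 1 and 10.7 to 15.9 CPM in the other 6 libraries. CD79A gave most of that sum, and MS4A1 and CD22 had no more than 1 count. Summed myeloid markers went the other way, at 0.550 to 0.741 CPM in replicate 1 and 0.829 to 1.29 CPM in the other 6. So did summed epithelial or fibroblast markers, at 0.0282 to 0.0531 and 0.0627 to 0.120 CPM. Both of these sums are low. The part of these markers, and of TLX3, in the GIMAP result was not tested. In bulk RNA, a lower share of cells that express a gene and less RNA per cell cannot be told apart.

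**Figure D4:**
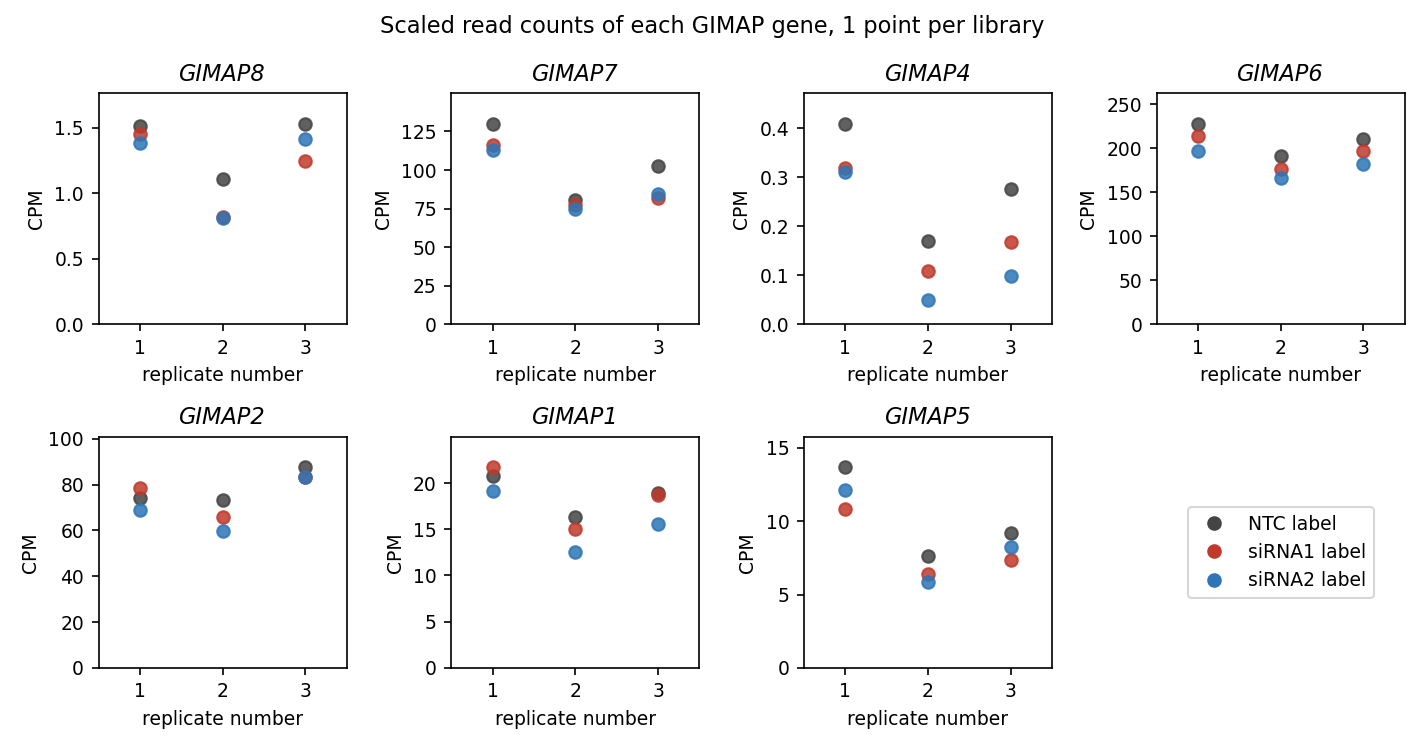
Scaled counts (CPM, y axes from 0) of each GIMAP gene by replicate number, 1 point per library, coloured by siRNA label. For GIMAP7, GIMAP5, GIMAP1 and GIMAP4 all 3 points of replicate 1 lie above the other 6, and for GIMAP2 the points of replicate 3 are highest.

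The members' levels varied together over the 9 libraries to different degrees. On log2 CPM, Pearson's r was 0.97 between GIMAP5 and GIMAP7, the highest of the 21 pairs, and 0.95 between GIMAP1 and GIMAP4. GIMAP2 had the lowest values, at 0.28 with GIMAP7 and 0.33 with GIMAP5, though 0.78 with GIMAP8. These are descriptions over the same 9 libraries, which share the split by replicate number. Among 9898 other genes with a mean of 5 CPM or more, those most like GIMAP7 were GINS4 (r = 0.985), TUBB (0.983) and CDCA5 (0.979). Those most like GIMAP5 were ORC6 (0.977), CCNE1 (0.975) and SFMBT1 (0.973). All 6 had their highest mean in replicate 1, as for GINS4 with 62.0 CPM there, 47.2 in replicate 2 and 53.3 in replicate 3.

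Of 12 genes of naive T cell survival and quiescence, the setting in which GIMAP proteins are best known, 2 were higher and 5 lower in the libraries labelled siRNA1 against NTC, beside 5.48% and 5.93% of all tested genes. IL7R, the receptor of the survival cytokine interleukin 7, was 18.6, 17.3 and 21.1 CPM in NTC replicates 1, 2 and 3 and 9.17, 6.87 and 6.62 in siRNA1. It fell by 1.33 on the log2 scale (SE 0.10, edgeR adjusted p = 7.02e-09), without overlap. TCF7, a transcription factor of early T cells, fell by 0.40 (SE 0.07). The list's median was -0.09 beside 0.00 for all genes. Of 10 BCL2 family genes, which set the threshold for cell death, only the survival gene BCL2L1 passed, beside the same 5.48% and 5.93% of all genes. BCL2L1 fell by 0.48 (SE 0.07, edgeR adjusted p = 4.09e-05). BCL2L11, a promoter of death in T cells, was called only between siRNA1 and siRNA2 (log2 difference -0.22, SE 0.06, edgeR adjusted p = 0.0297). Its mean was 101 CPM with the NTC label, 100 with siRNA1 and 117 with siRNA2.

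Of the 5 tested of 7 ATG8 genes, the family to which the GIMAP6 partner GABARAPL2 belongs, GABARAPL1 alone passed, beside 5.48% of all genes called higher and 5.93% lower. GABARAPL1 rose by 0.52 on the log2 scale (SE 0.11, edgeR adjusted p = 0.00197). GABARAPL2 did not pass, at 55.5 CPM with the NTC label and 61.1 with siRNA1. Of the 9 tested of 13 septins, the cytoskeletal relatives of the GIMAP GTPases, SEPT8 alone passed, beside the same 5.48% and 5.93%. SEPT8 fell by 0.24 (SE 0.06, edgeR adjusted p = 0.0186). Of the 9 tested of 10 interferon-inducible GTPases 3 were higher and 2 lower, again beside 5.48% and 5.93% of all genes, with GBP2 up by 1.35 (SE 0.14), GBP1 by 0.44 (SE 0.07) and GBP5 by 0.58 (SE 0.14), guanylate-binding proteins of cell defence. Of 22 tested genes within 500 kb of the cluster, 0 were higher and 4 lower, beside the same 5.48% and 5.93%: REPIN1 (-0.41, SE 0.07), ZNF775 (-0.34, SE 0.07), ZBED6CL (-0.25, SE 0.07) and AC005586.1 (-0.40, SE 0.10), an antisense RNA that overlaps REPIN1. Of the 577 exon bases of AC005586.1, 479 are shared with no other exon, and counts without strand cannot separate reads of opposite genes there. The neighbours' median log2 difference was -0.12. Between siRNA2 and NTC 0 of these 67 list genes passed by edgeR, beside 0.151% of all genes. At an unadjusted p under 0.05 there were 9, beside 8.37% of all genes. Of those 9, the neighbours LRRC61, REPIN1, ZBED6CL, ZNF775, AC005586.2 and AC010973.2 were lower, as were BAX and SEPT3, while BCL2L11 was higher. The neighbours' median log2 difference there was -0.10, beside -0.00 for all genes.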

How the data were processed

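Each library had a deposited table of raw counts, whole reads per gene without regard to strand, which the values show were not normalized. Per the labels' protocols the library kit does not mark strand. Per the submitters' processing notes the genome was GRCh38. The aligner and the annotation: not given in the sources used here. A summary line of each table sets apart reads over more than 1 gene (6.68% to 7.25%), which are in no gene's count. Symbols matched 57492 of 58096 identifiers, and 604 unmatched ones held 0.0317% of counts. Between 75.5% and 77.6% of reads fell in genes, and at this depth counting error is small above a few CPM.

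Genes were tested in R 4.3.3 with edgeR 4.0.16: TMM factors of 0.975 to 1.04, a filter by group with filterByExpr (at least 10 counts, and 15 in total), and a quasi-likelihood fit of all 9 libraries with the replicate number as a block (4 residual degrees of freedom before sharing across genes). A gene was called at an adjusted p (Benjamini-Hochberg) under 0.05. CPM are scaled by the TMM factors, and correlations used log2 CPM with a prior count of 2. Standard errors (SE) came from dividing the size of the log2 fold change by the root of F. Same-numbered libraries of different labels deviated together from their group means (correlations 0.383 to 0.623, against at most 0.0693 between other numbers), so the numbers were taken to pair them. No pair of replicates was a repeat (chi-square per degree of freedom 32.0 to 53.8). On simulated counts of 18554 genes for siRNA1 against NTC, 100% of 200 genes changed 2-fold were recovered and 3.38% of calls were false. The changed genes were drawn from those with higher mean counts. The recovery therefore does not cover differences as small as those of most members, or counts as low as those of GIMAP4.

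Alternatives were RLE factors, library size alone, no filter beyond 1 count, 1 CPM in 3 libraries, DESeq2 1.42.0, limma-voom (limma 3.58.1), no block, a fit of only the groups compared, strand columns summed, and each library left out. The members, lists and comparisons were chosen with earlier results of these data known. Genes named beside the members were those inside or next to the cluster, TLX1, TLX3, the 3 most correlated with GIMAP7 (highest per length) and with each member called for siRNA1 against NTC, and per list up to 3 with the smallest p called there and up to 2 called only elsewhere. A gene that this rule selects is not reported here. ZBED6CL, GABARAPL2 and the markers' leading genes were added after their values were seen.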

Additional observations from a re-analysis of the deposited data

How the results depend on the processing

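Samples with the same replicate number were paired in the fit. With no replicate block, called genes dropped from 2117 to 238 for siRNA1 against NTC, from 28 to 0 for siRNA2 against NTC and from 1958 to 201 for siRNA1 against siRNA2, and 0 members passed in any of them. Leaving out 1 library at a time gave 1163 to 2979 genes for siRNA1 against NTC (0 to 2 members), 4 to 108 for siRNA2 against NTC, 980 to 2387 for siRNA1 against siRNA2 (0 to 1 members) and 2023 to 4529 for replicate 1 (4 to 6 members). The 4 genes were left without siRNA2 replicate 3. Without the replicate 1 libraries, an alternative chosen after seeing the data, 1139, 93 and 1015 genes passed in the 3 comparisons of labels and 0 members. For siRNA2 against NTC, no filter gave 158 genes, DESeq2 and a fit of only the groups compared 105 each, and the sum of the strand columns 51. DESeq2 called 2 members for siRNA1 against NTC and 1 for siRNA2 against NTC, and only the groups compared called 2 for siRNA1 against NTC. RLE factors, library size alone and no filter called 0 members for siRNA1 against siRNA2.

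Signs turned only in differences close to 0. Without NTC replicate 2, GIMAP1 and GIMAP2 were at 0.030 and 0.012 for siRNA1 against NTC, in ranges over left-out libraries of -0.079 to 0.030 and -0.10 to 0.012. For siRNA1 against siRNA2, GIMAP7 was at -0.0012 without siRNA1 replicate 1, -0.026 without siRNA1 replicate 2 and -0.0031 without the replicate 1 libraries, and GIMAP8 was at 0.0065, 0.016 and 0.038 without siRNA1 replicate 2, siRNA1 replicate 3 and siRNA2 replicate 3, in ranges of -0.026 to 0.061 and -0.12 to 0.038. For replicate 1, GIMAP2 was at 0.024, 0.0088 and 0.0035 without NTC replicate 1, NTC replicate 2 and siRNA2 replicate 3, in a range of -0.073 to 0.024. Other uncalled differences kept their sign but moved by over 1.5 times: for siRNA1 against NTC, GIMAP8 to -0.17 without NTC replicate 2, and for siRNA1 against siRNA2, GIMAP4 to between 0.23 and 0.97 and GIMAP2 to 0.055, with single libraries left out. The cause was not tested. GIMAP4 could not be tested under a minimum of 1 CPM in 3 libraries, and its 4 to 30 counts limit what depth can show.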

Other observations

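The replicate number also divided genes of T cell quiescence, in the direction opposite to the GIMAP genes. KLF2, a transcription factor of resting T cells, was 1.83, 1.26 and 1.66 CPM in replicate 1 under the labels NTC, siRNA1 and siRNA2, and 8.15 to 11.1 CPM in the other 6. It fell by 2.57 on the log2 scale (SE 0.12, edgeR adjusted p = 8.34e-13). S1PR1, the receptor that lets T cells leave lymphoid organs, was 1.43, 1.08 and 1.41 CPM in replicate 1 and 2.86 to 5.27 CPM in the rest, and fell by 1.67 (SE 0.13, adjusted p = 3.26e-09). Of the 12 quiescence genes 0 were higher and 5 lower in replicate 1, beside 10.9% and 10.4% of all tested genes.

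Of 9 tested septins, 4 were higher and 1 lower in replicate 1, beside the same 10.9% and 10.4% of genes, with a median log2 difference of 0.14. SEPT11 was 136, 124 and 125 CPM in replicate 1 and 78.7 to 88.7 CPM in the others, a log2 difference of 0.61 (SE 0.06, edgeR adjusted p = 9.39e-08). Of 22 tested neighbours of the cluster, 2 were higher and 7 lower, against those shares, with LRRC61 at -0.32 (SE 0.06, adjusted p = 0.000447). The neighbours' median was -0.11 and that of the GIMAP genes 0.37.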
